A study of Rattus norvegicus with 34 samples.

Results

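Mt-atp8 and Mt-atp6, the mitochondrially encoded ATP synthase subunit genes, were followed in the dorsal hippocampus of 34 male Sprague Dawley rats. Both were taken by transcript identifier, as ENSRNOT00000046201.3 (Mt-atp8, 204 bases) and ENSRNOT00000046108.3 (Mt-atp6, 681 bases), and they are 2 of the 31196 transcripts quantified. In Experiment 1, 7 rats drank an 11% (w/v) sugar solution of 65% fructose and 35% glucose (SUG) and 7 control rats had an extra bottle of water instead (CTL), from postnatal day (PN) 26 to 28 until, by the labels, PN104; the study's methods give an earlier day for tissue collection. Experiment 2 also began at PN 26 to 28, and its tissue was collected at PN 83. In it, 7 rats had antibiotics and then a 1:1 mixture of Parabacteroides distasonis and Parabacteroides johnsonii by gavage (ABX-PARA). A further 6 rats had the same antibiotics and then saline (ABX-SAL), and 7 had saline at both steps (SAL-SAL). The antibiotics were given for 7 days, with vancomycin at 50 mg/kg and both neomycin and metronidazole at 100 mg/kg by gavage, and ampicillin at 1 mg/mL in the water. ABX-SAL and SAL-SAL together were the 13 combined controls for ABX-PARA. Every rat was male and housed alone, and ABX-PARA differs from SAL-SAL by the antibiotics as well as by the bacteria.

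ATP synthase, complex V of the respiratory chain, uses the flow of protons back across the inner mitochondrial membrane to make ATP, the fuel for ion pumping and synaptic transmission in neurons. Most of its subunits are encoded in the nucleus and imported, and these genes encode the only ones made inside the mitochondrion in mammals. Mt-atp6 encodes subunit a, which forms the path for protons beside the rotating ring of c subunits, and Mt-atp8 encodes A6L, a small membrane protein of the stator. Their reading frames overlap and lie on a single bicistronic mRNA, so a short read from the overlap belongs to both annotated transcripts. In a bulk tissue punch, fewer cells of a type and less RNA per cell cannot be told apart, and neither can the amount of mitochondrial RNA per mitochondrion and the number of mitochondria.

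Both genes were among the most heavily sequenced transcripts in every rat. Assigned reads per rat ranged from 14394530 to 22332725, with a median of 16334170. Mt-atp8 had 78995 to 151017 estimated reads (median 96483), which was 0.494% to 0.723% of the rat's total and made it 9th or 10th by reads. Mt-atp6 had 137313 to 229602 (median 170822), or 0.850% to 1.38%, and ranked between 2nd and 5th.

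The division of reads between the genes was an estimate, and their sum was firmer than either value alone. The summed estimate was a whole number, within 0.002 reads, in 34 of 34 rats, whereas each member was whole in only 2 rats. Reads were therefore shared out within the pair and not with other transcripts. The sum was 217402 to 372762 reads (median 266796), or 1.35% to 2.11% of the total.

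The order of the genes depended on the length used. Mt-atp6 had the more reads in all 34 rats, with 0.523 to 0.681 reads of Mt-atp8 for each read of Mt-atp6 (median 0.569). As RPKM, which scales reads by annotated length and by depth, Mt-atp8 was the higher, at 24238 to 35465 (median 28831) against 12479 to 20317 for Mt-atp6, a per-length ratio of 1.75 to 2.27. The effective lengths, which discount positions where a typical fragment cannot start, were 10.377 bases for Mt-atp8 and 432 for Mt-atp6, and on that scale the ratio was 21.8 to 28.4.

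The deposited TPM, a share of transcripts scaled to a fixed total, use the effective length, and there Mt-atp8 alone took 39.7% to 47.1% of the whole TPM of a rat (median 42.6%). Mt-atp6 took 1.62% to 2.10%. Of the transcripts listed, 273 (0.875%) were no longer than Mt-atp8, and the most heavily sequenced of the others averaged 383 reads against 98789 for Mt-atp8. Levels below are therefore CPM, assigned counts scaled to a common library size, after trimmed mean of M-values (TMM) scaling, which use no length.

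**Figure D1:**
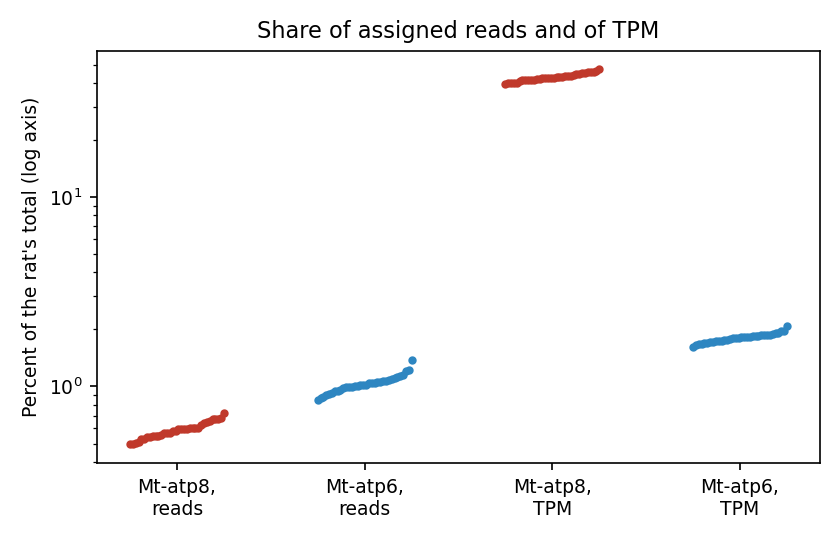
Share of each rat's assigned reads and of its TPM held by Mt-atp8 and Mt-atp6, in percent on a log axis, with 1 point per rat sorted from low to high. Mt-atp8 holds 0.494% to 0.723% of reads and 39.7% to 47.1% of TPM, while Mt-atp6 holds 0.850% to 1.38% of reads and 1.62% to 2.10% of TPM.

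Mt-atp8 was at its lowest mean in SUG and its highest in ABX-PARA, but the groups overlapped. In CTL the lowest, median and highest levels were 5377, 6277 and 6721 CPM, with a mean of 6077 ± 589 (SD, n = 7). In SUG they were 4837, 5507 and 5911 CPM, with a mean of 5406 ± 367 (SD, n = 7), the narrowest of the groups at a coefficient of variation of 6.79%. All 7 SUG rats lay below the CTL median, and SUG rats 3 and 4 lay below every CTL rat.

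In Experiment 2, the lowest, median and highest Mt-atp8 levels in SAL-SAL were 5312, 5841 and 6668 CPM, with a mean of 5909 ± 542 (SD, n = 7). In ABX-SAL they were 4875, 5898 and 6790 CPM, with a mean of 5849 ± 621 (SD, n = 6). In ABX-PARA they were 4970, 6054 and 7156 CPM, with a mean of 6169 ± 721 (SD, n = 7). Of the ABX-PARA rats, 6 lay above the combined control median and rats 1 and 8 lay above every control, while rat 7 was near the bottom of the control range.

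Mt-atp6 ordered the groups in the same way by their means, though not by their medians. The lowest, median and highest levels were 9447, 10059 and 11625 CPM in CTL, with a mean of 10439 ± 829 (SD, n = 7). In SUG they were 8475, 9988 and 10515 CPM, with a mean of 9686 ± 710 (SD, n = 7). Of the SUG rats, 5 lay below the CTL median, and rats 3 and 4 again lay below every CTL rat.

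For Mt-atp6 in SAL-SAL these levels were 9077, 10629 and 11630 CPM (mean 10292 ± 930, SD, n = 7). In ABX-SAL they were 8671, 9983 and 12218 CPM, with a mean of 10225 ± 1199 (SD, n = 6). In ABX-PARA they were 8441, 10583 and 13684 CPM, with a mean of 10975 ± 1646 (SD, n = 7) and the widest coefficient of variation, 15%. ABX-PARA held both the highest rats (1 and 8) and the single lowest rat (7) of the experiment.

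From high to low, mean levels of each gene and of their sum ran ABX-PARA, CTL, SAL-SAL, ABX-SAL and SUG. The experiments differ in age at collection as well as in treatment, so this order across them is a description. Neighbours in the order differed by less than the smaller of their SDs, with the exception of Mt-atp8 between ABX-SAL and SUG, where the gap was 443 CPM against an SD of 367 in SUG.

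**Figure D2:**
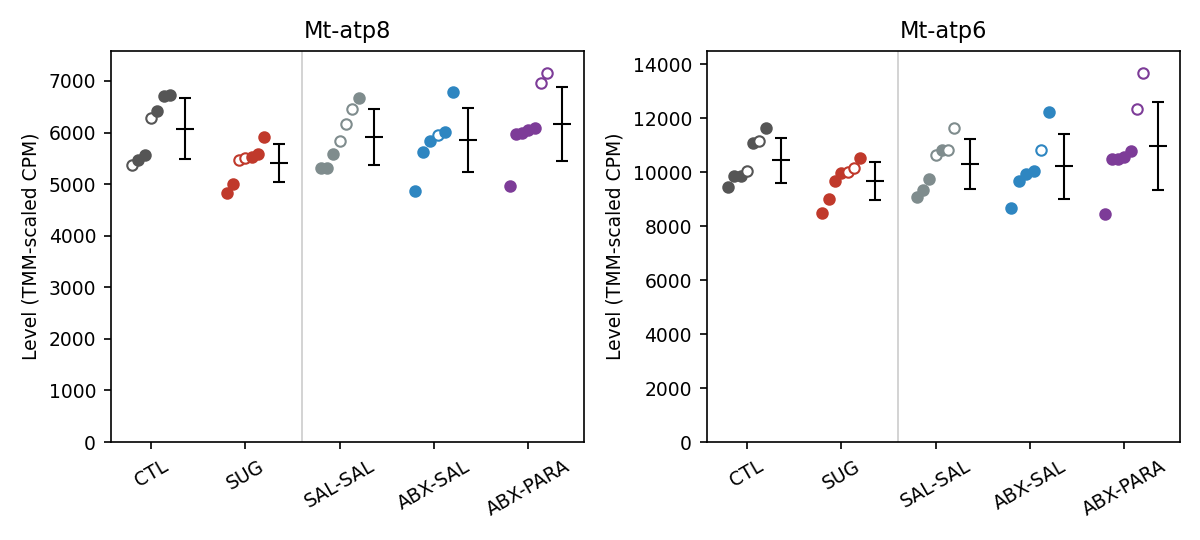
Levels of Mt-atp8 (left) and Mt-atp6 (right) in TMM-scaled CPM, with 1 circle per rat sorted within each group and a bar for the mean ± SD; open circles are rats of the first set of label numbers, filled circles those of the second. The SUG rats, at 4837 to 5911 CPM for Mt-atp8, overlap the lower part of the CTL range of 5377 to 6721, with 2 of them below it, and the highest ABX-PARA rats are the 2 open circles.

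The sugar comparison asked whether early life sugar was accompanied by a different level of these mRNAs. Mean levels of both were lower in SUG than in CTL, and neither difference passed the test across all transcripts. For Mt-atp8 the difference was -0.16 on the log2 scale (SE 0.062, 95% interval -0.29 to -0.032), which is -10.7%, with an unadjusted p of 0.0184 and an adjusted p of 0.647 by the quasi-likelihood test of edgeR with Benjamini-Hochberg adjustment. By p it was 589th of 20865 transcripts tested. For Mt-atp6 the difference was -0.10 (SE 0.057, interval -0.22 to 0.020), or -6.82%, with an edgeR adjusted p of 0.731.

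In this comparison edgeR called 0% of transcripts at an adjusted p below 0.05 and 7.39% at an unadjusted p below 0.05, 3.72% of all being lower in SUG. DESeq2 called 19 at the adjusted threshold, neither gene among them, and gave Mt-atp8 an adjusted p of 0.383. Mt-atp8 was thus 1 of 1542 transcripts at the unadjusted threshold and is no call of its own.

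The sum of the genes, which does not depend on how reads were divided, differed by -0.13 on the log2 scale between SUG and CTL (SE 0.058), from a mean of 16517 ± 1292 CPM (SD, n = 7) in CTL to 15092 ± 1066 (SD, n = 7) in SUG. The two-sided exact permutation p was 0.0478 over 3432 groupings and 0.287 after adjustment over the 6 tests of sum and ratio. All 7 SUG rats lay below the CTL median of the sum, and 2 lay below every CTL rat. Within the second set of label numbers, described below, the differences were -0.19 for Mt-atp8 and -0.12 for Mt-atp6. This alternative was chosen after seeing the data, and its edgeR adjusted p were 0.678 and 0.802. With the set as a term and all rats kept, the differences were -0.16 and -0.10.

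The Parabacteroides comparison asked the same of the enriched rats against the combined controls. Mean levels were higher in ABX-PARA, and the intervals included no difference. For Mt-atp8 the log2 difference was 0.066 (SE 0.067, 95% interval -0.073 to 0.21), or 4.72%, with an edgeR adjusted p of 0.844. For Mt-atp6 it was 0.095 (SE 0.076, interval -0.064 to 0.25), or 6.78%, with an edgeR adjusted p of 0.786. Here edgeR called 0% of 20827 transcripts at an adjusted p below 0.05 and 7.96% at an unadjusted p below 0.05, and DESeq2 called 13 at the adjusted threshold, neither gene among them.

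The sum averaged 17144 ± 2358 CPM (SD, n = 7) in ABX-PARA and 16142 ± 1546 (SD, n = 13) in the combined controls, a log2 difference of 0.081 (SE 0.085, exact permutation p 0.298, adjusted 0.528). Against SAL-SAL alone the difference was 0.062 for Mt-atp8 and 0.092 for Mt-atp6, and against ABX-SAL alone 0.080 and 0.105.

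These positive differences rested on few rats. ABX-PARA rats 1 and 8, at 6956 and 7156 CPM of Mt-atp8 and 12334 and 13684 CPM of Mt-atp6, are also the only ABX-PARA rats of the first set of label numbers. With the set as a term and all rats kept, the differences were 0.065 for Mt-atp8 and 0.093 for Mt-atp6, near the main values. In the second set alone (for the genes, an alternative chosen after seeing the data) they were 0.0055 for Mt-atp8, 0.029 for Mt-atp6 and 0.025 for the sum. Leaving out rat 8 gave 0.028, 0.035 and 0.032, and leaving out rat 1 gave 0.040, 0.069 and 0.051. Leaving out rat 7, the lowest, gave 0.11, 0.15 and 0.14, with an edgeR adjusted p of 0.406 for Mt-atp6.

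The antibiotics comparison set ABX-SAL against SAL-SAL. Means nearly coincided, with log2 differences of -0.014 for Mt-atp8 (SE 0.077, 95% interval -0.18 to 0.15, edgeR adjusted p 0.996) and -0.0089 for Mt-atp6 (SE 0.080, interval -0.18 to 0.16, edgeR adjusted p 0.998). The interval for Mt-atp8 leaves room for a change from -11.7% to 11.0%. In this comparison edgeR called 0% of 20954 transcripts at an adjusted p below 0.05 and 4.35% at an unadjusted p below 0.05, and DESeq2 called 4 at the adjusted threshold. The sum differed by -0.014 (exact permutation p 0.862, adjusted 0.899), and the sign of each antibiotic difference turned under several alternatives.

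**Figure D3:**
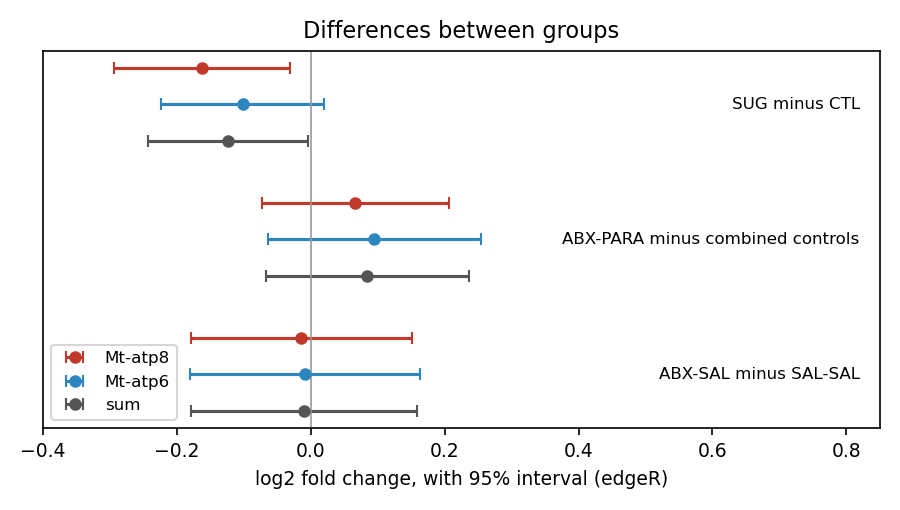
Log2 fold change with its 95% interval from edgeR for Mt-atp8, Mt-atp6 and their sum as a single feature, in each of the 3 comparisons; the vertical line marks no difference. The SUG minus CTL intervals of Mt-atp8 (-0.29 to -0.032) and of the sum lie below 0 before adjustment, and every other interval includes 0.

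The sugar and Parabacteroides differences had opposite signs, and the difference between them was tested in all 34 rats. It was -0.24 for Mt-atp8 (SE 0.098, 95% interval -0.44 to -0.038, unadjusted p 0.0213, edgeR adjusted p 0.561) and -0.21 for Mt-atp6 (SE 0.106, interval -0.42 to 0.010, edgeR adjusted p 0.616). Neither passed, where edgeR called 0% of 20909 transcripts at an adjusted p below 0.05, 8.14% at an unadjusted p below 0.05, and DESeq2 called 5 at the adjusted threshold.

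The ratio of Mt-atp8 to Mt-atp6 reads needs no library size. It averaged 0.583 ± 0.0461 (SD, n = 7) in CTL and 0.558 ± 0.0119 (SD, n = 7) in SUG, with 7 of 7 SUG rats below the CTL median. The log2 difference was -0.058 (SE 0.043, exact permutation p 0.181, adjusted 0.528). CTL rat 5 stood apart at 0.681, with the next CTL rat at 0.580, and without it the difference was -0.020 (adjusted exact permutation p 0.538). Without CTL rat 1, the lowest of that group, it was -0.079 (adjusted exact permutation p 0.0699).

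In Experiment 2 the ratio averaged 0.574 ± 0.0221 (SD, n = 7) in SAL-SAL, 0.573 ± 0.0196 (SD, n = 6) in ABX-SAL and 0.564 ± 0.0214 (SD, n = 7) in ABX-PARA. The Parabacteroides difference was -0.023 on the log2 scale (exact permutation p 0.352, adjusted 0.528), and without ABX-PARA rat 8, the lowest of the experiment at 0.523, it was -0.0053 (adjusted exact permutation p 0.899). Without SAL-SAL rat 6 it was -0.015. The antibiotics difference was -0.0038 (exact permutation p and adjusted p 0.899).

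**Figure D4:**
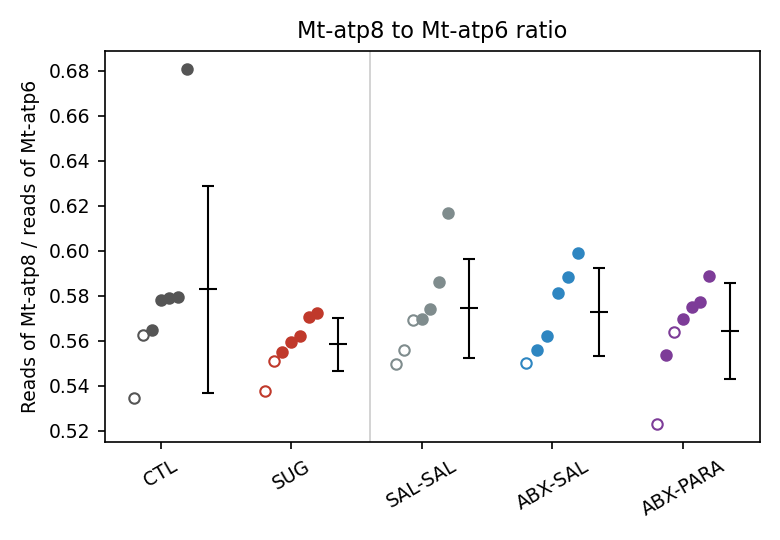
Reads of Mt-atp8 per read of Mt-atp6, with 1 circle per rat sorted within each group and a bar for the mean ± SD; open circles are rats of the first set of label numbers, and the axis does not start at 0. CTL rat 5 stands alone at 0.681, and the open circles lie at the bottom of most groups.

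In Experiment 2, the ratio and the level of Mt-atp6 differed between 2 sets of label numbers. The labels carry a running number that falls into a first set (10 rats, numbers up to 11) and a second (24 rats), each holding rats of all 5 groups, and the labels do not say what the number stands for. In Experiment 2 the ratio was 0.552 ± 0.0162 (SD, n = 6) in the first set and 0.578 ± 0.0170 (SD, n = 14) in the second, an exact permutation p of 0.00304 and an adjusted p of 0.0199 over 8 such tests. Mt-atp6 was 11657 ± 1182 CPM (SD, n = 6) against 10020 ± 990 (SD, n = 14), a log2 difference of 0.22 (exact permutation p 0.00498, adjusted 0.0199).

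The sum was also higher in the first set of Experiment 2, by 0.19 on the log2 scale (exact permutation p 0.00949, adjusted 0.0253), while Mt-atp8, at 0.15, missed the threshold after adjustment (exact permutation p 0.0341, adjusted 0.0683). The first set holds 2 of 7 ABX-PARA rats and 4 of 13 controls, and these permutations took no account of group. The mean sum was 20065 CPM in the first set and 15976 in the second in ABX-PARA, 17190 and 15460 in SAL-SAL, and 16789 (1 rat) and 15931 in ABX-SAL, so the gap was widest in ABX-PARA, where the first set is rats 1 and 8. In Experiment 1 the ratio was 0.547 in the first set and 0.580 in the second (log2 difference -0.084, exact permutation p 0.0759, adjusted 0.121). Within each of its groups the sets did not overlap, with ratios of 0.535 to 0.563 in the first set and 0.565 to 0.681 in the second in CTL, and of 0.538 to 0.551 and 0.555 to 0.572 in SUG, a split that was not tested within groups. The log2 differences of Mt-atp8, Mt-atp6 and the sum were -0.025, 0.060 and 0.029 in that experiment, with adjusted exact permutation p of 0.562 or more.

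Rats high in 1 gene were high in the other. In Experiment 1, Pearson's r of log2 CPM was 0.823 (n = 14 rats, permutation p 0.00042, adjusted 0.00056) and Spearman's rho 0.635 (permutation p 0.0171, adjusted 0.0171). Without the 2 rats farthest from the Mt-atp6 median, SUG 3 and CTL 3, r was 0.678 (permutation p 0.0160) and rho was 0.420 (permutation p 0.177), so that the rank relation no longer passed without them. Within the second set r was 0.856 and rho 0.879 (permutation p 0.00184), and for deviations from group means r was 0.769 and rho 0.692 (permutation p 0.00756).

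In Experiment 2 the relation was tighter, with r of 0.957 and rho of 0.910 over 20 rats (permutation p 1e-05 for both, the smallest that 100000 resamples can give, adjusted 2e-05 over the 4 tests). Without ABX-PARA rats 7 and 8 r was 0.946, within the second set 0.956 and for deviations from group means 0.956. Both values come from the same library, share its size factor and draw on reads divided between them, and how much of the relation these give was not tested.

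**Figure D5:**
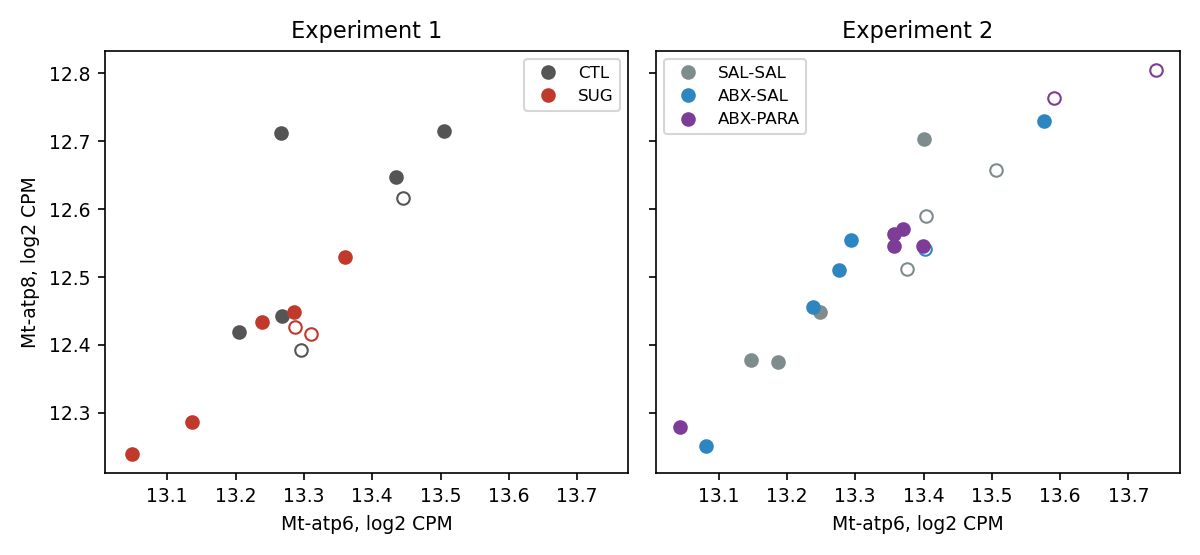
Mt-atp8 against Mt-atp6, both in log2 CPM, with 1 circle per rat in Experiment 1 (left) and Experiment 2 (right); open circles are rats of the first set of label numbers. The rats lie along a rising line, with CTL rat 5 above it in Experiment 1 and ABX-PARA rat 8 at the upper end in Experiment 2.

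Across all 34 rats the genes' r was 0.908, given as a description since the rats share groups and sets. Of 20907 other transcripts, 1 followed Mt-atp8 more closely than Mt-atp6 did, and 4 followed Mt-atp6 more closely than Mt-atp8 did. The closest to Mt-atp8 were ENSRNOT00000044582.3 (297 bases, r = 0.920) and ENSRNOT00000042928.3 (1378 bases, r = 0.901). The closest to Mt-atp6 were ENSRNOT00000047550.4 (955 bases, r = 0.938) and again ENSRNOT00000042928.3 (r = 0.928). Of the 10 closest transcripts, 8 were the same for both genes. These transcripts are given by identifier because nothing used here pairs them with gene names. For the same reason the nuclear subunits of ATP synthase, the other mitochondrial genes and markers of hippocampal cell types were not analysed by name. Transcripts of such genes may be among the closest ones.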

How the data were processed

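RNA from dorsal hippocampus punches was prepared as mRNA libraries. Per the labels, the authors trimmed reads with Trim Galore, checked them with FastQC and quantified transcripts with Salmon, with versions not given here. The deposited estimated counts need not be whole and were rounded. The deposited TPM were used only for shares and for an alternative ratio, because the authors' TPM depend on effective length. Effective lengths were the same in every rat, so log2 differences of that ratio had to equal those of the read ratio. A transcript entered a fit if over 50% of its rats had counts exceeding 1. Counts were scaled by TMM and tested with the edgeR (4.0.16) quasi-likelihood F-test in R 4.3.3, and p-values were adjusted (Benjamini-Hochberg) over all transcripts tested. The study used DESeq2, run here (1.42.0) as an alternative beside limma (3.58.1), other scalings, filters, control groups, terms for label-number set and transcript length, and omission of each rat. A prior count of 2 entered log2 CPM for the length trend, the closest transcripts and the check of same-numbered rats. The log2 CPM of the pair and its sum in the permutation tests and in the correlations within each experiment had none. Sum and ratio were compared by two-sided exact permutation over rats (Python 3.11.15), and correlations by permutation. Scripts were tested on simulated data. Named transcripts beyond the pair were the 2 with the highest correlation to each member. The genes and lists were chosen with earlier results of these data known. Lists of nuclear subunits, other mitochondrial genes and cell markers could not be tested without names.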

Additional observations from a re-analysis of the deposited data

Results flagged for a closer look

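CTL rat 5 had 0.681 reads of Mt-atp8 per read of Mt-atp6, far from the next CTL rat at 0.580. It was the 1 value beyond Dixon's limit among 20 sets of group values looked at, where chance gives about 1 in 20. Its levels were 6710 CPM of Mt-atp8 and 9853 CPM of Mt-atp6, and it had the most assigned reads (22332725). After the trend with transcript length was removed within each rat, its ratio was 0.702.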

How the results depend on the processing

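Over 16 results and 304 alternatives, 275 kept the direction and side of the threshold and 29 turned the direction, none of them past the threshold. The 275 include the TPM ratio, which could not differ. All sugar directions were kept. The antibiotics difference of Mt-atp8 became 0.0034 with limma, 0.0011 with total reads, 0.0079 with the label-number set as a term and 0.027 in the second set alone (an alternative chosen after seeing the data). That of Mt-atp6 became 0.0063 with total reads, 0.033 with the set term and 0.054 in the second set alone (chosen likewise), and that of the sum 0.0029 with total reads and 0.039 in the second set. The cause was not tested. Same-numbered rats were not paired: over 24 pairs the correlations of deviations ran from -0.114 to 0.0934, none above 0.1. With the replicate number as a block, rats without a same-numbered rat across the comparison dropped out, which changed the rats too. For sugar none did, so its sum and ratio differences could not change. For antibiotics SAL-SAL 1 dropped out, and the difference was 0.0076 for Mt-atp8, 0.019 for Mt-atp6 and 0.013 for the sum (the same without a block). For Parabacteroides, without ABX-PARA 8, SAL-SAL 6 and ABX-SAL 6, it was 0.0069 (Mt-atp8), 0.0048 (Mt-atp6), 0.0075 (sum) and 0.0049 (ratio). Without ABX-PARA 8 alone it was 0.032 for the sum, and the block's own part was not tested. The sugar difference of Mt-atp8 with the block was -0.16 (edgeR adjusted p 0.693).

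Leaving out each rat gave, for antibiotics, -0.061 to 0.033 for Mt-atp8, -0.067 to 0.034 for Mt-atp6, -0.064 to 0.034 for the sum and -0.017 to 0.013 for the ratio. The sign turned without SAL-SAL 6 (0.018, 0.0039, 0.0051 and 0.013, in that order) and without ABX-SAL 6 (0.033, 0.034, 0.034 and 0.0014), for all but the ratio without SAL-SAL 1 (0.0090, 0.023 and 0.013), for Mt-atp6 without ABX-SAL 2 (0.0064) or SAL-SAL 5 (0.0042), and for the ratio without SAL-SAL 4 (0.0012), ABX-SAL 5 (0.0047) or ABX-SAL 7 (0.0076). For sugar the range was -0.19 to -0.14 for Mt-atp8, -0.13 to -0.074 for Mt-atp6, -0.15 to -0.10 for the sum and -0.079 to -0.020 for the ratio. For Parabacteroides it was 0.028 to 0.11, 0.035 to 0.15, 0.032 to 0.14 and -0.034 to -0.0053. The labels do not name litters, and the tests took each rat as independent. Whether shared litters affect the p-values was not tested. Reads without molecular identifiers are not independent molecules.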
